A study of Mus musculus with 12 samples.

Results

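Smad4-null and wild type (WT) mouse embryoid bodies were compared while the receptors for activin and nodal were inhibited. Embryoid bodies are floating aggregates of differentiating embryonic stem cells. The comparison was defined by sample title, as the 2 Smad4-null-SB arrays minus the 2 WT-SB arrays, and it uses 4 of the 12 arrays of the series. It was read over 18193 genes, with 1 probe set per gene, the one with the highest mean over the 12 arrays among probe sets that carry exactly 1 gene symbol.

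All cells were of strain 129 and were grown without LIF in ultra-low attachment dishes. At day 2.5 the WT-SB and Smad4-null-SB embryoid bodies received SB431542, an inhibitor of the type I receptors for activin, nodal and TGF-beta, for 2 h; the labels give its concentration as 10 mM, which was not checked and may stand for a micromolar dose. The series also holds WT-ac and Smad4-null-ac, which received activin at 50 ng/ml for 2 h in place of the inhibitor, and a Trim33 knock-down line under both treatments (Trim33-KD-SB and Trim33-KD-ac). Each of the 6 groups has 2 arrays. No untreated group was analysed here, and every culture had differentiated for 2.5 days before the inhibitor was added, so the receptors were blocked for the last 2 h alone. The line and the genotype change together: how many clones stand behind the Smad4-null label is not stated in the labels, and no rescued line was analysed here. Whether replicates 1 and 2 came from separate cultures is not in the labels, so the p-values may reflect technical spread alone.

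Nodal and activin act through type I receptors that phosphorylate Smad2 and Smad3, which enter the nucleus with Smad4. BMP ligands use other type I receptors and Smad1, Smad5 and Smad9, which also pair with Smad4, and SB431542 does not inhibit the BMP receptors. Smad4 is therefore shared by both branches, and in the early embryo these branches act with Wnt and FGF signals to start the primitive streak, from which mesoderm and endoderm arise.

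The median log2 signal of the 4 arrays lay between 6.00 and 6.30. WT-SB replicate 2 stood apart from the rest of the 4: its SD of log2 signal was 3.07, against 3.31 to 3.33 on the others, and its Actb 3' minus 5' difference, a sign of RNA quality, was 0.67 against 0.32 to 0.38. The 18S rRNA signal was 5.82 and 7.57 on the WT-SB arrays and 8.10 and 9.22 on the Smad4-null-SB arrays, so it moved with the groups; its part in the results was not tested. Of 10 genes known from pluripotent and early differentiating cells, 0 were below a log2 signal of 6 in either group, and their summed linear signal was 80770 to 85725 in WT-SB and 88212 to 88282 in Smad4-null-SB. Smad4 itself gave 11.90 and 12.02 in WT-SB and 12.24 and 12.10 in Smad4-null-SB, a difference of 0.21 (SE 0.12, limma adjusted p = 0.319). Where its 3 probe sets lie relative to the mutation is unknown here, so this signal does not check the label. Trim33 was 1.67 lower in Trim33-KD-SB than in WT-SB and did not pass between Smad4-null-SB and WT-SB (-0.11, adjusted p = 0.787). In bulk RNA, fewer cells of a type and less RNA per cell cannot be told apart, which holds for every value that follows.

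With the receptors blocked, the lines differed at 1656 of 18193 genes (9.10%; limma, Benjamini-Hochberg adjusted p under 0.05). Of these, 542 were raised in Smad4-null-SB (2.98%) and 1114 were lowered (6.12%), where raised and lowered always mean higher or lower than WT-SB. The median over all genes was -0.12 on the log2 scale, and this shift depended on the scaling: it was -0.00 after quantile normalization, with 739 raised and 739 lowered, and 0.08 after centring each array on its median, with 1185 raised and 636 lowered. Without WT-SB replicate 2 the median was -0.05 and 648 genes passed, 271 raised and 377 lowered. Without Smad4-null-SB replicate 1, 463 passed, and without Smad4-null-SB replicate 2, 411. Differences of at least 1 in log2 were found at 257 raised and 545 lowered genes. With values below 64 on the linear scale set to 64, a log2 of 6 under which probe sets carry little signal, 485 of the raised and 910 of the lowered genes were still called.

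**Figure D1:**
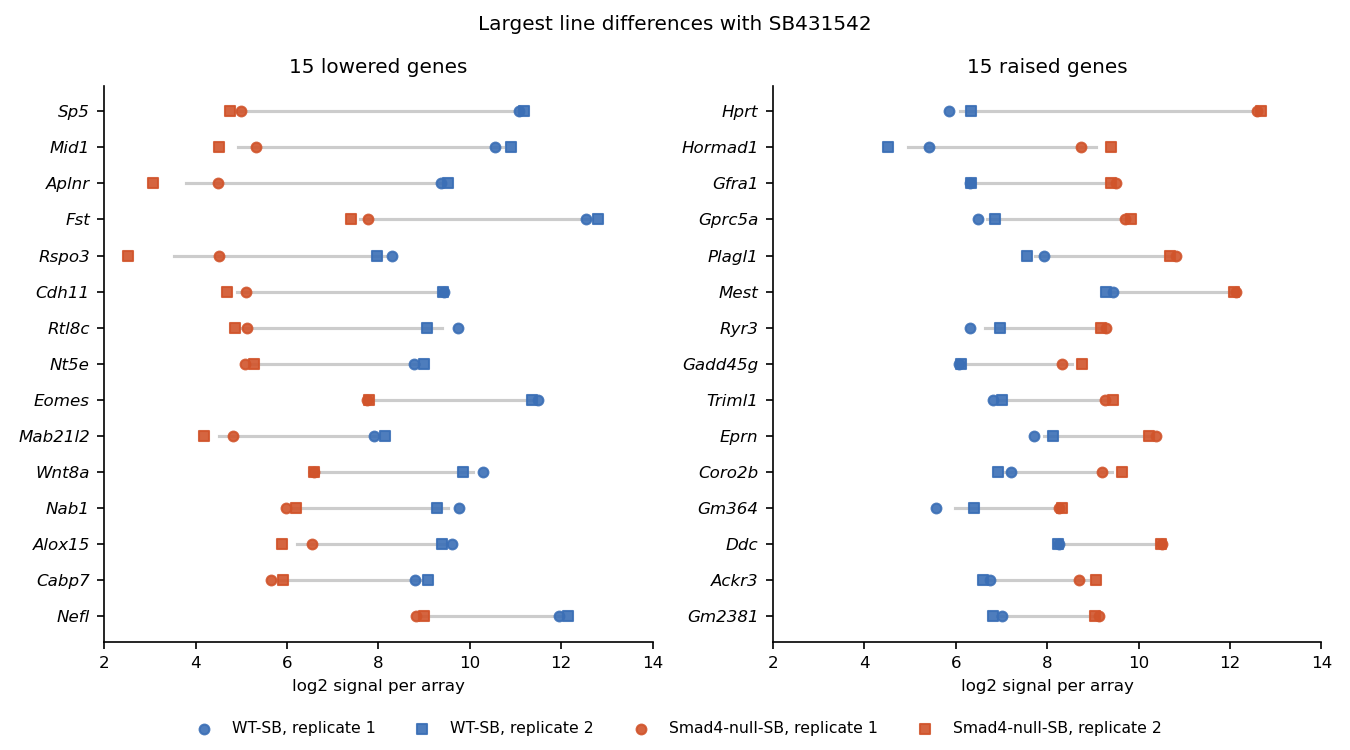
Log2 signal of each array (x axis) for the 15 lowered and the 15 raised genes of largest difference among called genes whose arrays do not overlap and whose higher group reached a mean log2 signal of 8; blue marks are WT-SB, orange marks Smad4-null-SB, circles replicate 1 and squares replicate 2, and grey lines join the group means. The differences ran from -3.14 to -6.27 among the lowered genes and from 2.18 to 6.55 among the raised genes, with Sp5 and Hprt at the ends.

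The most lowered of all 18193 genes was Sp5 (chromosome 2), a zinc finger factor that is switched on directly by canonical Wnt signalling and marks the primitive streak. Its log2 signal was 11.08 and 11.19 on the WT-SB arrays and 4.99 and 4.74 on the Smad4-null-SB arrays. The groups lay far apart, and both mutant arrays were in the range where probe sets carry little signal. The difference was -6.27 (SE 0.80, limma adjusted p = 0.00534), which left 1.30% of the WT signal; with the floor of 64 it was -5.13. Its promoter is shown because Wnt targets as a group recur below, and that of Axin2, the feedback inhibitor used as the standard Wnt readout, is set beside it. Both are from RefSeq on the build GRCm38.p6 and run from 250 bases before the transcription start to 50 bases after the start, on the plus strand; Sp5 is chr2:70474673-70474972 and Axin2 chr11:108920099-108920398. The capitals mark CTTTGAT, the reverse complement of ATCAAAG, the core letters that TCF and LEF factors bind, which begins 104 bases before the Sp5 start.
Sp5: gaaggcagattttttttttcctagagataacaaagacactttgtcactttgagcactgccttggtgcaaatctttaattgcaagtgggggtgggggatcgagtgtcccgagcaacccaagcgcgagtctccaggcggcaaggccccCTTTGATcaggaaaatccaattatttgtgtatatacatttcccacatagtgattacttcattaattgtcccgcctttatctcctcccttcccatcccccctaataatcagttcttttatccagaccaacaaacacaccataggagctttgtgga
Axin2: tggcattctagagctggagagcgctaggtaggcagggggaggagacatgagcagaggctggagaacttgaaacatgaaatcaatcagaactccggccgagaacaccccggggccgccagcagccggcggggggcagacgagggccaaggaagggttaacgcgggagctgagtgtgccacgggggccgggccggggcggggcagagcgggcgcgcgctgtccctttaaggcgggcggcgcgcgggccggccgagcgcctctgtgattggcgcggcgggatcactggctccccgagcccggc
ATCAAAG was searched on both strands. It was found in Sp5 and not in the Axin2 window, and of 32851 RefSeq promoters of the same length 1225 (3.73%) held it. Of the 12 measured Wnt targets, 7 genes matched with 13 promoters, and the Sp5 promoter was the 1 with these letters.

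Other lowered genes of this group belong to the streak and to the signals around it. Eomes (chromosome 9), the T-box factor that starts mesendoderm and cardiac mesoderm, gave 11.49 and 11.36 in WT-SB and 7.74 and 7.80 in Smad4-null-SB. All 4 values were well above the floor, and the arrays of each group lay close together. The difference was -3.65 (SE 0.25, limma adjusted p = 0.000813), or 7.96% of WT, and a further Eomes probe set gave -3.36. Fst, which encodes follistatin, a secreted protein that binds activin, was 12.54 and 12.81 in WT-SB against 7.78 and 7.40 (difference -5.09, SE 0.36, limma adjusted p = 0.000813). Wnt8a, a Wnt ligand of the posterior epiblast, was 10.30 and 9.84 in WT-SB against 6.59 on both Smad4-null-SB arrays (-3.48, SE 0.18, limma adjusted p = 0.000428). The signal in Smad4-null-SB was 2.94% of WT-SB for Fst and 8.94% for Wnt8a, and the groups did not overlap. Aplnr, the apelin receptor of early mesoderm, fell by 5.67 on the log2 scale, Cdh11, a mesenchymal cadherin on chromosome 8, by 4.53, and Rspo3, a secreted enhancer of Wnt signalling, by 4.62. Rspo3 lost its call without WT-SB replicate 1 (limma adjusted p = 0.0729), without WT-SB replicate 2 (0.0791) and without Smad4-null-SB replicate 2 (0.109), and its value was -2.14 with the floor.

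The remaining lowered genes have other roles. Mid1, an X-linked microtubule-associated ubiquitin ligase, was 10.55 and 10.91 in WT-SB against 5.32 and 4.52 (-5.81, SE 0.38, limma adjusted p = 0.000813). A second bright probe set of Mid1 gave -4.50, and a further, dim one, below a log2 of 4 on all 4 arrays, gave 0.90. Nt5e, the ecto-enzyme that makes adenosine, fell by 3.70, Nab1, a repressor that binds EGR factors, by 3.43, and Alox15, a lipoxygenase, by 3.29. Nefl, the light neurofilament chain on chromosome 14, was 11.96 and 12.14 in WT-SB against 8.82 and 9.0, a difference of -3.14 (SE 0.22, limma adjusted p = 0.000813). Rtl8c, an X-linked gene derived from a retrotransposon, fell by 4.41, Mab21l2, an eye and body wall gene, by 3.52, and Cabp7, a calcium-binding protein gene, by 3.17. Mab21l2 lost its call without any single one of the 4 arrays (limma adjusted p 0.0607 to 0.114).

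Hprt (X chromosome), the purine salvage enzyme that is the classic selectable gene of 129-derived stem cell lines, was the most raised gene. It gave 5.84 and 6.32 in WT-SB and 12.59 and 12.67 in Smad4-null-SB. The WT-SB arrays were at the level of the floor and the Smad4-null-SB arrays among the bright genes. The difference was 6.55 (SE 0.24, limma adjusted p = 0.000163), a 93.7-fold higher linear signal. On the Trim33-KD-SB arrays Hprt was 6.16 and 5.61. Among 11 measured genes of purine synthesis and salvage Hprt was the 1 that was raised and 0 were lowered; the median of the list was 0.04.

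Next among genes whose higher group reached a mean log2 of 8 came Hormad1, a meiotic chromosome axis protein gene, which was 5.41 and 4.50 in WT-SB and 8.74 and 9.39 in Smad4-null-SB (4.11, SE 0.46, limma adjusted p = 0.00353). Gfra1, the GDNF co-receptor of germline stem cells and neurons, rose by 3.14, and Gprc5a, an orphan receptor induced by retinoic acid, by 3.09. The imprinted genes Mest and Plagl1, which are expressed from the paternal allele, were raised. Mest, a hydrolase-like protein of embryonic mesoderm, was 9.44 and 9.28 in WT-SB and 12.13 and 12.09 in Smad4-null-SB (2.76, SE 0.13, limma adjusted p = 0.000303). Plagl1, a zinc finger factor, was 7.92 and 7.57 against 10.81 and 10.68 (3.0, SE 0.20, limma adjusted p = 0.000813). For both, the arrays of a group lay close together and far from the other group. Of the 2 other Plagl1 probe sets, both dim, 1 gave 2.40 and 1 gave -0.06. The bright Plagl1 probe set is of a type marked as cross-hybridizing; without such probe sets Plagl1 was read at -0.06 and was not called (limma adjusted p = 0.972). Ryr3, a calcium release channel, rose by 2.60, Ddc, the decarboxylase of dopamine and serotonin synthesis, by 2.25, Coro2b, an actin-binding coronin, by 2.36, and Ackr3, a scavenger receptor for the chemokine Cxcl12, by 2.21, also on a probe set of that type. Gadd45g, a growth arrest gene, rose by 2.45 and Triml1, an embryonic ubiquitin ligase gene on chromosome 8, by 2.44, and each lost its call without any single one of the 4 arrays (limma adjusted p 0.0632 to 0.108). Eprn (2.38), Gm364 (2.31) and Gm2381 (2.18) completed the raised genes. Without Smad4-null-SB replicate 2, Gm364 (limma adjusted p = 0.0505) and Cdh11 (0.0652) were not called either, so 6 of the 30 named genes lost their call there.

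The activin arrays of the same lines share no array with this comparison and were used to repeat it within the same limma model. All 15 lowered genes and 14 of the 15 raised genes passed in the same direction there, where 9.29% of all genes passed, 3.69% raised and 5.60% lowered. Triml1 was the exception with 1.48. Over all called genes, 532 of the 542 raised (98.2%) were also higher in Smad4-null-ac, against 55.2% of all genes, and 375 passed in that direction, 69.2% of the raised genes with SB431542 and 55.9% of the 671 raised with activin. Of the 1114 lowered genes, 1047 (94.0%) were also lower, against 44.8% of all genes, and 682 passed, 61.2% of the lowered genes with SB431542 and 66.9% of the 1019 lowered with activin. The differences come from separate arrays, but the model gives both comparisons the same estimate of spread for each gene. The genes that passed in both are therefore not independent calls, and how far this raised the overlap was not tested. With only the groups compared in each fit, which leaves fewer arrays, limma called 0 genes in either comparison. The same lines were used under both treatments, so the genotype and other properties of the lines cannot be told apart here either. Against the other mutant line, limma called 8.43% of genes between Smad4-null-SB and Trim33-KD-SB (2.75% higher and 5.68% lower in Smad4-null-SB). That comparison shares the Smad4-null-SB arrays and is no independent repeat. In Trim33-KD-SB these 30 genes lay between -1.53 and 1.30 of WT-SB, with Aplnr (-1.53) and Cdh11 (-1.51) lowest.

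**Figure D2:**
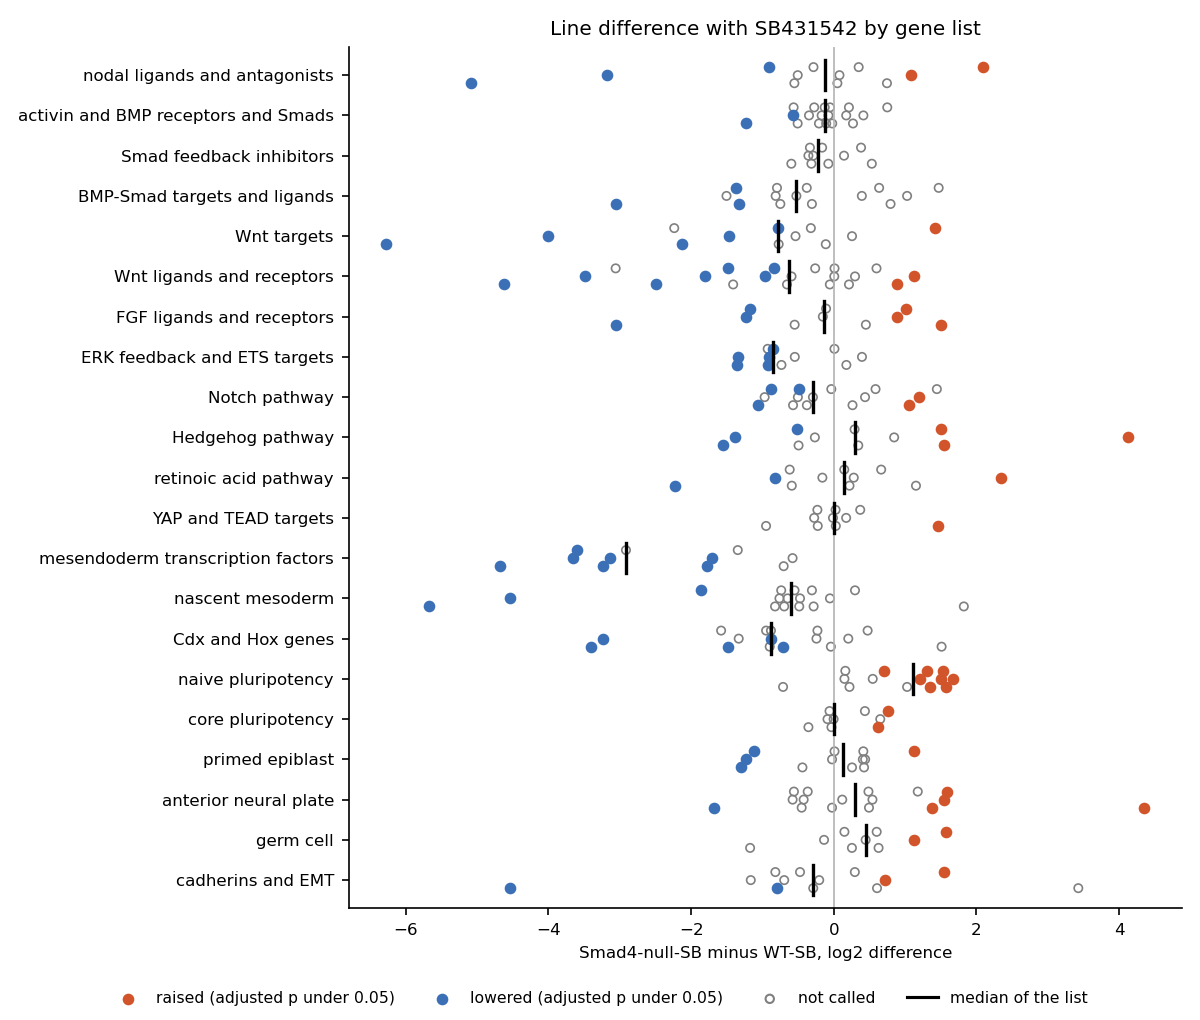
Difference between Smad4-null-SB and WT-SB (x axis, log2) for every measured member of 21 gene lists of signalling pathways and cell fates; orange points were raised and blue points lowered at a limma adjusted p under 0.05, open points did not pass, and black bars are list medians. All points of the mesendoderm factors lie left of 0, with a median of -2.91. Most of those of naive pluripotency lie right of 0, with a median of 1.11, and both Wnt lists reach beyond -4.

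Transcription factors of the primitive streak and endoderm had the lowest median of the 21 signalling and fate lists. Of 11 measured mesendoderm factors 7 were lowered and 0 raised, against 6.12% lowered over all genes; the median was -2.91, against -0.12 for all genes, and for all 11 both Smad4-null-SB arrays lay below both WT-SB arrays, which held for 33.7% of all genes. Besides Eomes, the lowered members were Gsc, Evx1, Cdx2, Mixl1, Gata6 and Sox17. Mixl1, a streak homeobox gene, was 9.17 on both WT-SB arrays and 6.23 and 5.83 in Smad4-null-SB (-3.14, SE 0.45, limma adjusted p = 0.00828). Evx1, a homeobox gene of the posterior streak, was 7.68 and 8.20 against 5.08 and 3.61 (-3.59, SE 0.51, limma adjusted p = 0.00804). Gsc, the organizer homeobox gene, was 7.07 and 7.04 against 2.00 and 2.74. Its difference of -4.68 (SE 0.62, limma adjusted p = 0.00599) rests on values near the bottom of the scale: with the floor it was -1.05 and did not pass, and neither did Sox17. Cdx2, the caudal factor, fell by 3.24, Gata6, a factor of endoderm and heart, by 1.77, and Sox17, an endoderm factor, by 1.70. Lhx1 (-2.91), Foxa2 (-1.35), Hhex (-0.70) and Gata4 (-0.58) did not pass. Brachyury was not analysed here. The count of lowered members was 4 without WT-SB replicate 2, 5 without Smad4-null-SB replicate 1 and 6 without either of the other arrays.

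Mesoderm genes that come on after the streak held fewer called members, where 6.12% of all genes were lowered and 2.98% raised. Of 16 measured nascent mesoderm genes 3 were lowered and 0 raised, with a median of -0.60: Aplnr and Cdh11, given above, and Mesp1, the cardiac mesoderm factor, which was 7.87 and 8.13 in WT-SB and 6.16 and 6.13 in Smad4-null-SB (-1.86, SE 0.31, limma adjusted p = 0.0141). Kdr, the VEGF receptor of blood and vessel progenitors, gave -0.74 and Twist1, a mesenchymal factor, -0.69, and neither passed. Tbx6, Msgn1, Foxc1, Foxc2 and Pdgfra had group means below a log2 of 6 in both lines. The count was 1 without Smad4-null-SB replicate 2 and 2 without WT-SB replicate 2 or Smad4-null-SB replicate 1.

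Genes of posterior identity followed, several of them dim, where 6.12% of all genes were lowered and 2.98% raised. Of 16 measured Cdx and Hox genes 5 were lowered and 0 raised, with a median of -0.88. With the floor the median was -0.05 and 3 were lowered, and after quantile normalization 2 were lowered and 1 raised. Of the list, 0 members were in the upper 50% of genes by mean signal, so the size of the list median is not reliable. Cdx1, a caudal factor induced by Wnt and retinoic acid, was 5.38 and 5.44 in WT-SB and 2.40 and 1.6 in Smad4-null-SB (-3.41, SE 0.32, limma adjusted p = 0.00228), all below the floor. Hoxb1, an anterior Hox gene that is switched on early, was 7.10 and 7.11 on the WT-SB arrays and 6.28 and 6.16 in Smad4-null-SB, a difference of -0.89 (SE 0.18, limma adjusted p = 0.0254). With the floor the Cdx1 difference was 0.00, whereas Hoxb1 stayed called at -0.89. Hoxd1 (-1.48) and Evx2 (-0.72) were the remaining lowered members besides Cdx2. The count was 3 without WT-SB replicate 1 and 2 without any one of the other arrays.

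Signalling genes were read in the order ligands, receptors, Smads and feedback. Of 12 measured nodal ligands and antagonists 2 were raised and 3 lowered, against 2.98% and 6.12% of all genes. Nodal itself was 11.17 and 11.67 in WT-SB and 10.88 and 10.85 in Smad4-null-SB, a difference of -0.55 (SE 0.19, limma adjusted p = 0.13). Gdf3, a partner ligand of nodal, was 9.99 and 10.13 against 11.14 and 11.15 (1.08, SE 0.15, limma adjusted p = 0.00702). Lefty1, a secreted nodal antagonist that activin and nodal induce, was 10.62 and 10.05 in WT-SB and 12.40 and 12.46 in Smad4-null-SB. Both mutant arrays lay above both WT-SB arrays, and the WT-SB arrays differed from each other by more than the mutant arrays did. The difference was 2.10 (SE 0.24, limma adjusted p = 0.00401), a 4.27-fold higher signal. The antagonists did not move together: Lefty2 gave 0.35 (adjusted p = 0.216), Cer1, an antagonist of nodal, BMP and Wnt, fell by 3.18, and Fst fell by 5.09. Furin, a protease that matures nodal, fell by 0.91, and Tdgf1, the nodal co-receptor, gave -0.51 (adjusted p = 0.0651). The median of the list was -0.12, equal to that of all genes, and 0.09 after median centring. Lowered members were 2 without WT-SB replicate 2 or Smad4-null-SB replicate 1, and 1 without Smad4-null-SB replicate 2, where 1 member was raised.

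Of 18 measured receptors and Smads 2 were lowered and 0 raised, where 6.12% of all genes were lowered, so the count is not a result about this list; its median was -0.12 (0.09 after median centring). Tgfbr2, the TGF-beta type II receptor, fell by 1.24 (limma adjusted p = 0.0177) and Smad5, a BMP-branch Smad, by 0.57 (adjusted p = 0.0344). Neither was called without WT-SB replicate 2, and the list had 0 calls without any single one of the 4 arrays. The receptor-activated Smad2 gave 0.27, Smad3 -0.05 and the DNA-binding partner Foxh1 -0.51, and these did not pass. After quantile normalization 0 members were called.

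Feedback inhibitors of Smad signalling held 0 called members of 10, where 9.10% of all genes passed, and 3 of the 10 had an unadjusted p under 0.05; with the floor the corepressor Tgif2 was lowered and after median centring the Smad corepressor Skil was raised. Of the list, 1 of 10 was higher and 5 of 10 were lower without overlap of the arrays, against 20.0% and 33.7% of all genes. Smad7, the inhibitory Smad that activin induces within hours, was 8.57 and 8.03 in WT-SB and 8.52 and 8.85 in Smad4-null-SB. The groups overlapped, and the difference was 0.38 (SE 0.27, limma adjusted p = 0.449). With activin Smad7 was 11.48 and 11.34 in WT-ac and 8.82 and 9.02 in Smad4-null-ac, a difference of -2.49 (limma adjusted p = 0.00313). Pmepa1, which sequesters receptor Smads, gave -0.33 with SB431542 (8.04 and 7.58 against 7.42 and 7.54; adjusted p = 0.352) and -1.89 with activin (adjusted p = 0.0028). The line difference with SB431542 minus that with activin was 2.88 for Smad7 (95% interval 1.98 to 3.78) and 1.55 for Pmepa1 (0.90 to 2.20). Neither passed over all 18193 genes (limma adjusted p = 0.237 and 0.28); over the upper 50% of genes by mean signal the adjusted p was 0.0129 for Smad7 and 0.103 for Pmepa1.

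The branch that the inhibitor does not block was read through BMP targets. Of 15 measured BMP-Smad targets and ligands 3 were lowered and 0 raised, where 6.12% of all genes were lowered. The median was -0.52, and -0.23 without WT-SB replicate 2. Id1, a direct BMP target that blocks differentiation factors, was 10.43 and 10.48 in WT-SB and 7.79 and 7.0 in Smad4-null-SB (-3.06, SE 0.32, limma adjusted p = 0.003). Id3 was 10.71 and 10.66 against 9.43 and 9.21 (-1.36, SE 0.15, limma adjusted p = 0.00342). Msx1, a homeobox gene that both Smad branches can induce, was 8.55 and 8.53 against 7.16 and 7.26 (-1.33, SE 0.12, limma adjusted p = 0.00184). None of these genes had overlapping groups, and all 3 stayed called without any single one of the 4 arrays. Without WT-SB replicate 1, Bmp4 was also called lowered and Id4 raised. After quantile normalization, after median centring and with the trended and robust prior, 2 members were raised, Id4 and Tbx3. In Trim33-KD-SB, Id1 was 11.12 and 11.10 and Id3 11.22 and 10.99, above Smad4-null-SB (limma adjusted p = 0.0016 and 0.00155). Id2 (-0.75), Bmp4 (-0.52), the BMP ligand of the posterior epiblast, and Id4 (0.64) did not pass.

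**Figure D3:**
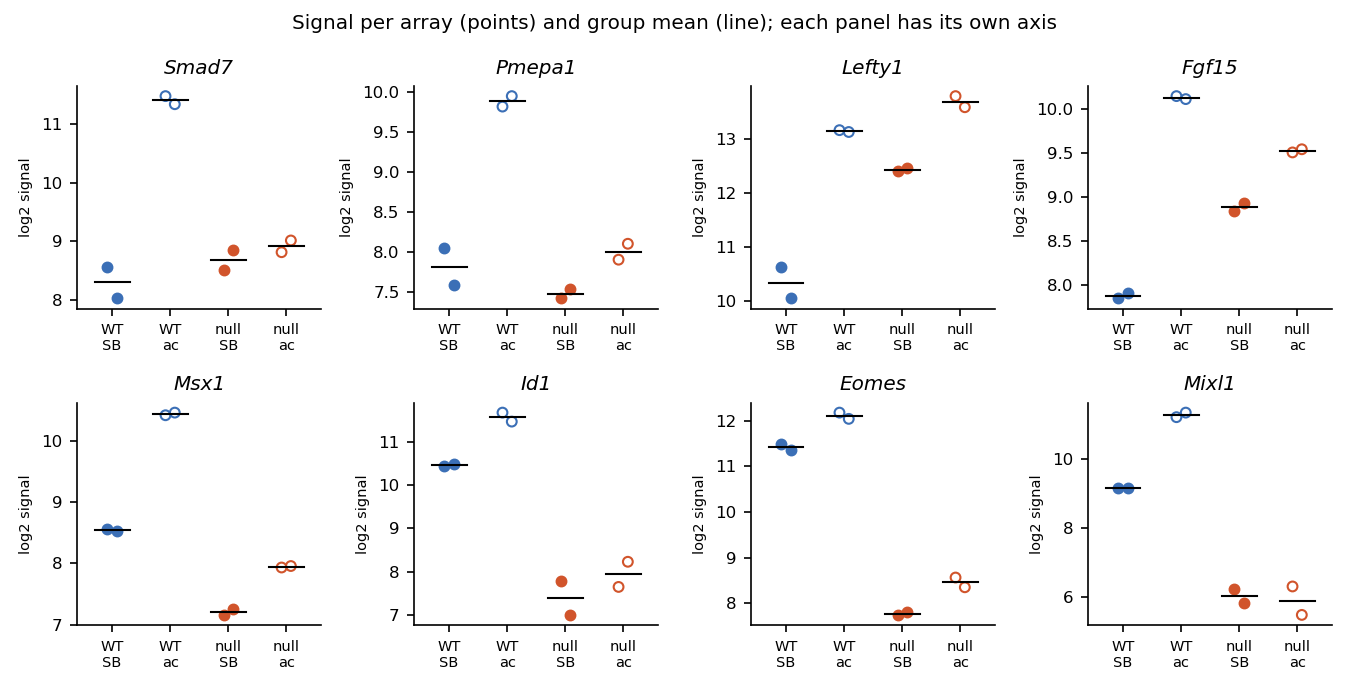
Log2 signal of every array (y axis; each panel has its own range) for 8 genes in WT-SB, WT-ac, Smad4-null-SB and Smad4-null-ac; filled points received SB431542, open points activin, blue is WT, orange Smad4-null, and black lines are group means. Smad7 and Pmepa1 passed between the lines with activin and not with SB431542, Lefty1 lies higher in Smad4-null than in WT under both, Fgf15 changes the order of the lines, and Msx1, Id1, Eomes and Mixl1 are lower in Smad4-null under both treatments.

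Members of both Wnt lists were lowered. Of 12 measured Wnt targets 5 were lowered and 1 raised, against 6.12% and 2.98% of all genes, with a median of -0.78. Besides Sp5, Axin2 was 10.45 and 10.36 in WT-SB and 8.99 and 8.89 in Smad4-null-SB (-1.47, SE 0.14, limma adjusted p = 0.00264). Dkk1, a secreted Wnt antagonist, was 6.75 and 6.66 against 4.42 and 4.74 (-2.13), Lgr5, the R-spondin receptor, was 5.96 and 6.42 against 1.77 and 2.60 (-4.01), and Nkd1, an intracellular inhibitor on chromosome 8, fell by 0.78. These 3 lay near or below the floor and were not called with it, which left Sp5 and Axin2. Notum, the secreted enzyme that inactivates Wnt ligands, went the other way, with 8.37 on both WT-SB arrays and 9.83 and 9.76 in Smad4-null-SB (1.42, SE 0.10, limma adjusted p = 0.000822). Lef1 (0.26) and Ccnd1 (-0.11) did not pass. Lowered targets were 4 without WT-SB replicate 1 and 3 without any one of the other arrays.

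Of 20 measured Wnt ligands, receptors and secreted regulators 7 were lowered and 2 raised, against 6.12% and 2.98% of all genes. The median of the list was -0.62. Wnt8a and Rspo3 are given above, and Wnt11, a ligand of the planar polarity branch, fell by 2.49. Fzd3, a receptor on chromosome 14, was 9.05 and 8.93 in WT-SB and 7.59 and 7.43 in Smad4-null-SB (-1.48, SE 0.19, limma adjusted p = 0.00553). Fzd1 fell by 1.80, Fzd10 by 0.83 and the decoy receptor Sfrp2 by 0.96, while Fzd7 rose by 0.89 and the decoy receptor Sfrp1, on chromosome 8, by 1.12. Wnt3, the ligand that starts the streak, was 6.16 and 5.58 in WT-SB and 4.38 and 1.25 in Smad4-null-SB, a wide spread, and its -3.06 did not pass (adjusted p = 0.145). The called receptor genes moved in both directions. The list was unstable to single arrays: 5 members were lowered without WT-SB replicate 1, 3 without WT-SB replicate 2, 4 without Smad4-null-SB replicate 1 and 2 without Smad4-null-SB replicate 2.

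FGF ligands moved in both directions. Of 10 measured ligands and receptors 3 were raised and 3 lowered, against 2.98% and 6.12% of all genes. Fgf8, the streak ligand, was 10.58 and 10.39 in WT-SB and 7.61 and 7.26 in Smad4-null-SB (-3.05, SE 0.31, limma adjusted p = 0.00291). Fgf4, a target of Oct4 and Sox2 in pluripotent cells, was 9.41 and 9.92 against 11.06 and 11.27 (1.5, SE 0.26, limma adjusted p = 0.0156). Fgf5, the marker of primed epiblast, fell by 1.24 and the dim Fgf3 by 1.17, and the receptor Fgfr2 rose by 0.88. Fgf15 was 7.85 and 7.91 in WT-SB and 8.84 and 8.93 in Smad4-null-SB (1.01, SE 0.14, limma adjusted p = 0.00696), yet with activin it was 10.14 and 10.11 in WT-ac and 9.50 and 9.54 in Smad4-null-ac (-0.60, adjusted p = 0.0375). Over all genes, 7 were called in opposite directions under the treatments, and Fgf15 was the 1 of these whose higher group with SB431542 reached a mean log2 of 8. Without Smad4-null-SB replicate 1, 1 FGF gene was raised and 1 lowered; without Smad4-null-SB replicate 2, 0 and 1; without WT-SB replicate 1, 1 and 2.

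Several genes that ERK signalling induces, among them its own brakes, lay lower. Of 11 measured ERK feedback and ETS target genes 5 were lowered and 0 raised, against 6.12% and 2.98% of all genes. The median of the list was -0.85, and the members ran from -1.35 to 0.40. The lowered members were Spry2 (-1.35) and Spry4 (-0.92), which inhibit receptor tyrosine kinase signalling, the phosphatases Dusp4 (-0.85) and Dusp6 (-0.91), and the immediate early factor Egr1 (-1.34), with limma adjusted p from 0.0148 to 0.0467. Spry2 lies on chromosome 14 and Dusp4 on chromosome 8. Without the genes of these chromosomes 2 of 8 members were lowered, and 0 of 11 passed for a change of at least 1.5-fold. The calls were fragile: 0 of the list passed without any single one of the 4 arrays, while 5 were lowered after quantile normalization, and 3 were lowered and 1, Spry1, raised after median centring.

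The Hedgehog targets Ptch1 and Gli1 rose and 3 co-receptors of the pathway fell. Of 11 measured members 3 were raised and 3 lowered, against 2.98% and 6.12% of all genes. Ptch1, the receptor and a direct target of the pathway, was 10.99 and 11.12 in WT-SB and 12.60 and 12.58 in Smad4-null-SB (1.54, SE 0.14, limma adjusted p = 0.00228). Gli1, the target that is taken as the pathway's readout, was 7.66 and 7.68 against 9.12 and 9.23 (1.51, SE 0.16, limma adjusted p = 0.00312). The groups did not overlap for either, and 2 further, dimmer Ptch1 probe sets gave 1.78 and 1.12. Hhip, a decoy for the ligands on chromosome 8, had a fitted difference of 4.13 from values below the floor on all 4 arrays. The co-receptors Gas1 (-1.55), Boc (-1.39) and Cdon (-0.51) were lowered; the ligands Shh (0.34) and Ihh (-0.49) were near the floor and did not pass. Further, dim probe sets gave 0.57 for Cdon and -1.06 and 0.80 for Boc. For the mean of probe sets 2 members were raised and 0 lowered, so the lower co-receptors depended on the probe sets read. Raised members were 2 without any single one of the 4 arrays, and lowered members 1 or, without Smad4-null-SB replicate 2, 0.

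Retinoic acid, Notch and YAP genes were read against the 9.10% of all genes that passed. Of 11 retinoic acid genes 1 was raised and 2 lowered: Cyp26a1, the enzyme that degrades retinoic acid, was 9.49 and 9.50 in WT-SB and 7.44 and 7.11 in Smad4-null-SB (-2.22, SE 0.39, limma adjusted p = 0.0161), the binding protein Crabp2 fell by 0.83, and Aldh1a2, near or below the floor throughout, had 2.34 (0.06 with the floor). Neither lowered gene was called without any single one of the 4 arrays. Without WT-SB replicate 2, Aldh1a2 and the receptor Rarb were raised, and 0 of the list were called without Smad4-null-SB replicate 2. Of 15 Notch genes the ligand Dll1 (1.19) and the modifier Lfng (1.06) were raised and the ligand Dll3 (-1.07), the feedback inhibitor Nrarp (-0.88) and Notch3 (-0.48) were lowered. Of these 5, Dll3 kept its call without any single one of the 4 arrays. Raised and lowered members were 0 and 1 without Smad4-null-SB replicate 1, 1 and 1 without Smad4-null-SB replicate 2, 1 and 2 without WT-SB replicate 1, and 0 and 2 without WT-SB replicate 2. Notch3 was also not called without cross-hybridizing probe sets. Of 10 YAP and TEAD target genes 1 was raised: Ccn2, a matricellular protein, was 9.48 and 9.72 in WT-SB and 11.14 and 10.99 in Smad4-null-SB (1.47, SE 0.20, limma adjusted p = 0.00622), while Ccn1 gave 0.03.

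Genes of naive pluripotency, the state of the early epiblast, were the list with the most raised members. Of 14 measured 8 were raised and 0 lowered, against 2.98% raised over all genes, and the median was 1.11. Nr0b1, a nuclear receptor on the X chromosome, was 8.97 and 8.91 in WT-SB and 10.50 and 10.73 in Smad4-null-SB (1.67, SE 0.14, limma adjusted p = 0.00162). Klf4, a reprogramming factor, was 8.40 and 8.70 against 10.05 and 10.20 (1.57, SE 0.20, limma adjusted p = 0.00553). Zfp42, which encodes Rex1, was 11.21 and 11.26 against 12.47 and 12.61 (1.30, SE 0.12, limma adjusted p = 0.00207). In none of these did the groups overlap. The raised members lay between 0.71 and 1.67, and the whole list ran from -0.71 to 1.67. Prdm14 (1.53), Fgf4 (1.5), Tcl1 (1.35), Esrrb (1.20) and Klf2 (0.71) were also raised, and all 8 passed with activin in the same direction. Zfp42 and Klf2 lie on chromosome 8 and Klf5 (-0.71, not called) on chromosome 14. Tfcp2l1 (0.16), Dppa3 (0.15) and Gbx2 (0.22) did not pass. Raised members were 7 without WT-SB replicate 2, 6 without WT-SB replicate 1 or Smad4-null-SB replicate 1, 5 without Smad4-null-SB replicate 2, and 4 when the arrays of narrow spread, Smad4-null-ac replicate 1 and WT-SB replicate 2, were both left out.

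Core pluripotency factors held fewer called genes, where 2.98% of all genes were raised and 6.12% lowered. Of 9 measured 2 were raised and 0 lowered, with a median of -0.00 (0.20 after median centring): Sox2 (0.75, limma adjusted p = 0.0328) and Dppa2 (0.62, adjusted p = 0.0361), neither called without WT-SB replicate 2. Pou5f1, which encodes Oct4, was 13.15 and 13.27 in WT-SB and 12.87 and 12.84 in Smad4-null-SB (-0.36, adjusted p = 0.088), and Nanog gave -0.03. The list had 1 raised member without WT-SB replicate 1 and 0 without either Smad4-null-SB array. Of 12 genes of the primed epiblast, the state that follows, 1 was raised and 3 lowered, with a median of 0.13. Besides Fgf5 the lowered ones were Zic2 (-1.29) and Sall2 (-1.12), both on chromosome 14, and the raised one was the POU factor Pou3f1 (1.13). Without Smad4-null-SB replicate 1 the list had 0 calls, without Smad4-null-SB replicate 2 1 lowered, without WT-SB replicate 1 1 raised and without WT-SB replicate 2 2 lowered. Otx2, on chromosome 14, gave 0.42 (adjusted p = 0.197), and Dnmt3b, the de novo methyltransferase of this state, 0.01.

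Among anterior neural genes 4 of 16 were raised and 1 lowered, where 2.98% of all genes were raised and 6.12% lowered. Their median was 0.30, which was 0.13 without WT-SB replicate 1 and 0.74 without WT-SB replicate 2. With the floor the median was 0.0. Over the 4 members in the upper 50% of genes by mean signal it was -0.24, with 1 raised and 1 lowered. Pax6, the eye and forebrain factor, was 6.83 and 7.02 in WT-SB and 8.62 and 8.41 in Smad4-null-SB (1.59, SE 0.16, limma adjusted p = 0.00264), and Irx3, a homeobox gene on chromosome 8, rose by 1.37. Nes, the intermediate filament nestin, was 9.73 and 9.93 against 8.19 and 8.11 (-1.68, SE 0.12, limma adjusted p = 0.000822). These 3 stayed called with the floor and without any single one of the 4 arrays, whereas Lhx2 (4.35) and Ncam1 (1.54) rest on values near or below the floor, were called in neither case, and left 2 raised members. Sox1 was below a log2 of 5 on all 4 arrays and Sox3 gave -0.02. Of 9 germ cell genes 2 were raised: Dazl, an RNA-binding protein of germ cells, was 7.71 and 7.64 against 9.17 and 9.33 (1.57, SE 0.14, limma adjusted p = 0.00219), and Prdm1, the repressor that specifies germ cells, rose by 1.12. Prdm1 was the member that a single array could remove: 1 was raised without WT-SB replicate 1 or either Smad4-null-SB array.

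Cadherins and EMT genes held 2 raised and 2 lowered of 13, where 2.98% of all genes were raised and 6.12% lowered. Cdh1, which encodes E-cadherin and lies on chromosome 8, was 12.72 and 12.44 in WT-SB and 13.34 and 13.26 in Smad4-null-SB (0.72, SE 0.14, limma adjusted p = 0.022). Vim, the mesenchymal filament vimentin, was 11.77 and 11.54 against 10.94 and 10.78 (-0.80, SE 0.15, limma adjusted p = 0.0223). The remaining called members were Ncam1 (1.54) and Cdh11 (-4.53). Cdh1 was called without WT-SB replicate 1 and lost its call without any one of the other arrays, Vim lost its call without any single one of the 4 arrays, and 0 of the list were called without Smad4-null-SB replicate 2. N-cadherin, Cdh2, gave -0.29, Snai1 -0.47 and Epcam -0.20, and these did not pass. A second bright Cdh2 probe set was 9.67 and 9.32 in WT-SB and 8.71 and 8.49 in Smad4-null-SB, a difference of -0.89.

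**Figure D4:**
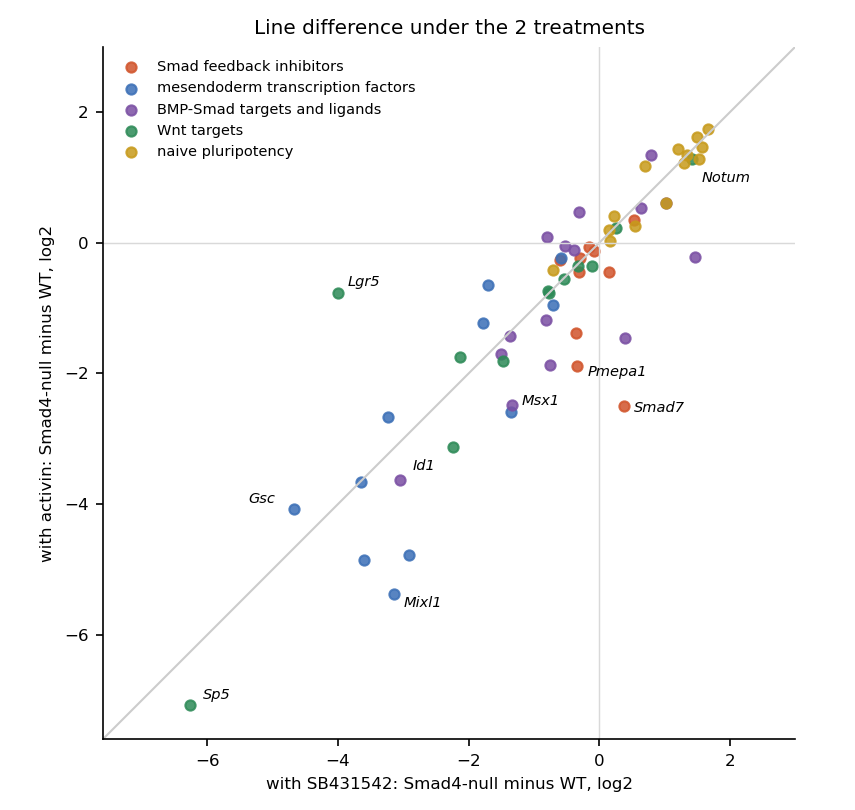
Line difference with SB431542 (x axis) against the line difference with activin (y axis), both Smad4-null minus WT in log2, for members of 5 gene lists; the grey diagonal marks equal differences. The axes use separate arrays. Sp5, Id1 and the naive genes lie near the diagonal, whereas Smad7 (0.38 and -2.49), Pmepa1 (-0.33 and -1.89) and Mixl1 (-3.14 and -5.38) lie below it and Lgr5 (-4.01 and -0.76) above it. With SB431542 Lgr5 lay near or below the floor, so its size is not reliable. Tested over all genes, the difference between the treatments passed for 0 of 18193.

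The difference between the line differences was tested for every gene. Limma called 0 of 18193 at an adjusted p under 0.05, and 1317 (7.24%) had an unadjusted p under 0.05; among the 10 Smad feedback inhibitors there were 4 of these, among the 14 naive genes 0 and among the 11 mesendoderm factors 1. Over the upper 50% of genes by mean signal 4 passed, all with a higher value with SB431542: Smad7, Fgf15 (1.61, adjusted p = 0.0129), Msx1 and Epha2, of which Epha2, an ephrin receptor, was named after its values were seen. With the floor of 64 on the full set 11 passed, all in the other direction. With 2 arrays a group, a p over the threshold does not show that the line difference is the same under both treatments. The median of this difference was 0.01 over mesendoderm factors, -0.02 over naive genes and -0.11 over all genes.

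Lists of general cell physiology differed in how many members were called, where 9.10% of all genes passed. Of 15 hypoxia and glycolysis genes, 14 ATF4 stress and serine genes and 8 housekeeping genes 0 were called by limma, with medians of -0.12, 0.25 and -0.08, and 1, 6 and 0 had an unadjusted p under 0.05; after median centring they were 0.09, 0.46 and 0.13, and the ATF4 targets Asns, Psat1 and Slc7a3 were raised, the last 2 also with the floor. Of 14 cell cycle genes 1 was lowered, the cyclin Ccnd2 (-1.46), and of 11 cholesterol genes 1, Fdft1 (-0.84), on chromosome 14. Of 11 p53 targets Gadd45a (0.97) was raised, and Cdkn1a gave -0.69 (adjusted p = 0.118). Fdft1 and Gadd45a lost their calls without WT-SB replicate 2 or either Smad4-null-SB array, and without WT-SB replicate 1 Cdkn1a was called lowered. Immediate early genes held 3 lowered and 1 raised of 14: Fos (-1.15), Junb (-1.14) and Egr1 were lowered and Mycn (0.45) raised, and all 4 lost their call without WT-SB replicate 2, where Jun was lowered, and 0 of the list were called without any one of the other arrays. Of 17 matrix and integrin genes the integrin Itgb5 (-1.04), the actin-binding Tagln (-1.19) and Col1a2 (-0.64) were lowered. That count was 1, Itgb5, without WT-SB replicate 2 or Smad4-null-SB replicate 2, 2 without Smad4-null-SB replicate 1 and 4 without WT-SB replicate 1. Dnmt3l, a cofactor of de novo methylation, was 10.67 and 10.31 in WT-SB and 12.37 and 12.38 in Smad4-null-SB (1.88, SE 0.22, limma adjusted p = 0.00401), and with Tet1 (0.62) it made 2 raised of 8 DNA methylation enzymes; Tet1 was not called without WT-SB replicate 2 or either Smad4-null-SB array, and Dnmt3l was read from a probe set marked as cross-hybridizing, with no other used in its place. In Trim33-KD-SB Dnmt3l was 11.86 and 12.25, and the mutant lines were not called different (limma adjusted p = 0.473). Of 14 imprinted genes 3 were raised, Mest, Plagl1 and Sgce (0.52), 0 lowered, and the list median was -0.20 (0.01 after median centring). With a replicate block in the model 2 were raised, and Sgce was not called. Igf2 gave -0.33 and Peg3 -0.42.

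Among markers of other cell types 0 were raised, where 2.98% of all genes were raised and 6.12% lowered. The count of 0 is near that share and is not a result about these markers. Fibroblast markers had a summed linear signal of 1007 to 1259 in WT-SB and 1147 to 1178 in Smad4-null-SB, with 0 of 9 raised and 2 lowered (Thy1 and Col1a2), and 6 and 5 of 9 below a log2 of 6. The lowered count was 0 without WT-SB replicate 2 or either Smad4-null-SB array, and the median of the list was -0.46, and 0.32 without WT-SB replicate 2. Dcn, a fibroblast proteoglycan, was 5.12 and 4.66 in WT-SB and 8.11 and 7.58 in Smad4-null-SB, which did not pass (2.95, adjusted p = 0.118); with the floor it was called raised. Blood and endothelium markers summed to 1795 to 2173 and 1423 to 1455, with 0 of 11 called and 3 at an unadjusted p under 0.05 (limma). Extraembryonic endoderm markers summed to 3566 to 3637 and 3406 to 3436, with 2 of 14 lowered, Gata6 and Sox17, and 4 and 9 members below a log2 of 6. Trophoblast markers summed to 7226 to 7871 in WT-SB and 4043 to 4079 in Smad4-null-SB, with 2 of 9 lowered, Eomes and Cdx2, which the streak also expresses. Of the 9 members, 2 in WT-SB and 3 in Smad4-null-SB were below a log2 of 6. Gata3, below a log2 of 4 on all 4 arrays, was among these. The part of any minor cell population in the lowered streak genes was not tested.

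**Figure D5:**
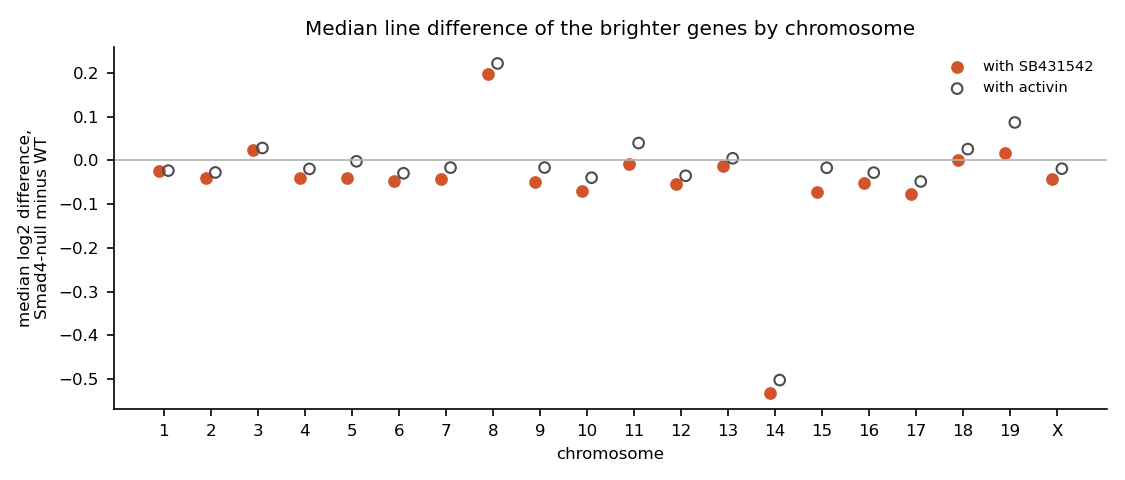
Median line difference (y axis, log2, Smad4-null minus WT) of the genes in the upper 50% by mean signal on each chromosome (x axis), filled with SB431542 and open with activin. With SB431542, chromosome 14 lies at -0.53 and chromosome 8 at 0.20, while the other 18 chromosomes lie between -0.08 and 0.02.

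Position on a chromosome moved with the line difference as well. Within the brighter 50% of the genes, ranked by mean signal, the 304 on chromosome 14 had a median of -0.53, that is 69.2% of the WT-SB signal, and 128 of them were lowered (42.1%). The 522 genes of chromosome 8 had a median of 0.20, and 71 were raised (13.6%). On the other 18 chromosomes 2.0% to 7.1% of genes were raised and 4.5% to 10.4% lowered. The activin arrays gave -0.50 and 0.22. Without the genes of chromosomes 8 and 14, 1313 genes of the whole set were called. Among called genes named above, Nefl, Fzd3, Spry2, Zic2, Sall2 and Fdft1 lie on chromosome 14, and Triml1, Klf2, Zfp42, Irx3, Cdh1, Sfrp1 and Hhip on chromosome 8, each with the sign of its chromosome. Cdh11, Nkd1, Dusp4 and Junb lie on chromosome 8 and were lowered against it. How far the line difference of any one of these genes follows from its chromosome was not tested.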

How the data were processed

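Total RNA was labelled and hybridized to Affymetrix arrays, 1 per sample, per the labels. The deposited values are log2 signals. On the linear scale every array averages 500 once 2% of the values at either end are trimmed. The summarization of probes was not given in the sources used here. The submitters' processing notes name limma without a version. The values were used unchanged. Of 45101 probe sets, 64 were controls, 34945 had 1 symbol, 932 several and 9160 none in the platform table; probe sets without exactly 1 symbol were left out.

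A means model over all 12 arrays and 6 groups (6 residual degrees of freedom) was fitted with limma 3.58.1 in R 4.3.3 (lmFit, eBayes), with Benjamini-Hochberg adjustment over 18193 genes and a threshold of 0.05. Log2 differences are Smad4-null minus WT, and intervals are at 95%. Contrasts were the line difference with SB431542, the same with activin, their difference, and Smad4-null-SB minus Trim33-KD-SB. Simulated data for the SB431542 comparison with 18193 genes held 67 changes of log2 1, 67 of 2 and 66 of 3, set into brighter genes. Of these 56.7%, 95.5% and 98.5% were recovered, and 14 unchanged genes were called. The simulated noise was normal and independent between arrays, without the scaling and RNA quality differences of the real arrays. How far these shares hold for the real arrays was not tested. Plots were made in matplotlib 3.10.9 under Python 3.11.15. The number of arrays limits the precision.

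The members and lists were chosen with earlier results of these data known. The rule for named genes took the 15 raised and 15 lowered genes of largest difference among called genes whose arrays do not overlap and whose higher group reached a mean log2 of 8, any member of the signalling and fate lists, and at most 5 from any other list; Epha2 was named after its values were seen. The alternatives changed the scaling (quantile normalization, median centring), the genes or probe sets (upper 50% of genes by mean signal, a floor of 64, probe sets averaged, each probe set by itself, cross-hybridizing ones dropped, chromosomes 8 and 14 dropped), the model (trended and robust prior, array weights, replicate block, a fit of the compared groups alone, a tested change of at least 1.5-fold) or the arrays (each left out in turn; WT-SB replicate 2 with Smad4-null-ac replicate 1, whose spread was narrow). Arrays were not paired by replicate number, since the correlation of replicate deviations between groups was -0.299 to 0.386.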

Additional observations from a re-analysis of the deposited data

Results flagged for a closer look

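For 7 listed genes the arrays of the lines did not overlap under either treatment and lay in opposite orders, which is why they are listed here; each value is the line difference with SB431542 minus that with activin. Fgf15 had 1.01 and -0.60, and the difference between them was 1.61 (limma adjusted p = 0.226). The Notch target Hes1 had a difference of 1.76 (adjusted p = 0.631), the nodal antagonist Lefty2 of 0.64 (adjusted p = 0.604) and the laminin chain Lamb1 of 0.61 (adjusted p = 0.684). The difference was -1.22 for the immediate early gene Ier3 (limma adjusted p = 0.812), -0.35 for cyclin Ccna2 (adjusted p = 0.731) and -0.42 for the glutathione-degrading enzyme Chac1 (adjusted p = 0.72). None passed over all genes.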

How the results depend on the processing

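The count of 1656 genes with SB431542 was 0 when only the groups compared were fitted (3494 at an unadjusted p under 0.05, limma), 166 for a change of at least 1.5-fold, 338 without both arrays of narrow spread and 411 to 1433 with 1 array left out; all other alternatives kept it within 1.5 times. With activin (1690 genes) it was 1045 for the mean of probe sets, 0 for only the groups compared (3864 unadjusted), 217 for at least 1.5-fold, 434 without the narrow arrays and 499 to 1709 with 1 array left out. For Smad4-null-SB against Trim33-KD-SB (1534 genes) it was 1012 for the mean of probe sets, 0 for only the groups compared (4029 unadjusted), 193 for at least 1.5-fold and 386 to 1517 with 1 array left out. The difference between treatments (0 genes) was 3 after quantile normalization, 4 over the upper 50%, 11 with the floor, 2 with the trended and robust prior and 0 with any array left out. With a replicate block the first 3 counts were 1387, 1444 and 1245. Plagl1 reversed without cross-hybridizing probe sets, to -0.064 (limma adjusted p = 0.972), which reads a dimmer probe set; Ddc was 0.54 for the mean of probe sets (adjusted p = 0.417). Fitted on the groups compared alone, which leaves fewer samples, none of the 30 named genes passed (adjusted p 0.107 to 0.141). The causes of the other changes were not tested. Signals below a log2 of 6 give no reliable size, so differences of dim genes are known in direction at most.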
